A study of Mus musculus with 12 samples.

Results

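The surface proteins by which adipose progenitors are recognised and sorted were followed here at the RNA level, as 10 genes chosen by name: Pdgfra, Pdgfrb, Ly6a, Ly6c1, Cd34, Dlk1, Nt5e, Thy1, Eng and Itgb1. All 10 were found among the 24341 genes of the deposited table. They were not chosen by a threshold on their values, though earlier results of these data were known. Only 6 of them, Pdgfra, Pdgfrb, Ly6a, Ly6c1, Eng and Itgb1, were measured well above the low end of the table in preadipocytes. Cd34, Dlk1, Nt5e and Thy1 averaged under 1 FPKM there, so for these 4 genes the data do not bear out the name of preadipocyte marker in these cells.

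RNA was sequenced from mouse cells of the C57Bl/6 strain, derived from adipose tissue and immortalised with SV40, in 4 groups of 3 libraries. These were Acly-/- adipocytes, Aclyf/f adipocytes, Acly-/- preadipocytes and Aclyf/f preadipocytes. Acly encodes ATP citrate lyase, which makes acetyl-CoA from citrate in the cytosol and nucleus, and the "f" stands for an Acly allele flanked by loxP sites, so that Aclyf/f cells keep the gene. Preadipocytes were confluent cultures at day 0. Adipocytes were taken on day 4 of a standard differentiation cocktail that contained rosiglitazone, an agonist of the nuclear receptor PPAR-gamma, so every adipocyte library carries that agent. All 4 groups carry SV40, which sets these lines apart from progenitors in tissue. How Acly was deleted, which exons were lost and whether the libraries of a group come from separate cultures or clones is not stated in the labels, so p-values measure only the spread between these libraries.

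Levels are in FPKM, which divides the fragments of a gene by its transcript length and by the depth of the library, and depth was estimated at 7.08e+06 to 1.38e+07 fragments per library. Acly itself averaged 12.4 ± 1.17 FPKM in Acly-/- adipocytes and 754 ± 52.5 FPKM in Aclyf/f adipocytes, and 12.1 ± 0.309 FPKM in Acly-/- preadipocytes and 86.9 ± 2.33 FPKM in Aclyf/f preadipocytes (SD, n = 3 each). Libraries of a group correlated at 0.992 to 0.996 on the log scale across genes. In library 3 of the Acly-/- preadipocytes the 10 highest genes took 15.5% of the summed FPKM, led by the small nucleolar RNA Snord12. Of 8 defining adipocyte genes, 7 were tested and all 7 were higher in adipocytes than in preadipocytes of either genotype, while Lep, the gene of the hormone leptin, stayed under 0.3 FPKM in all 12 libraries. Genes were tested if they reached 1 FPKM in 3 or more libraries. Cidec, Plin1 and Cd36 averaged under 1 FPKM in both preadipocyte groups and entered through adipocytes. They had to rise, so their calls lend no support. Adipoq, Fabp4, Pparg and Cebpa averaged above 1 FPKM in every group. Of all tested genes, 30.4% passed the test as higher in adipocytes in Acly-/- cells and 36.5% in Aclyf/f cells.

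Adipose progenitors are stromal cells of the mesenchyme that sit along blood vessels and give rise to new adipocytes. PDGFRA and PDGFRB are receptor tyrosine kinases for platelet-derived growth factors, and in mouse fat PDGFRA marks most cells with adipogenic capacity. Ly6a encodes SCA-1 and Ly6c1 a related protein of the same family, both held in the membrane by a lipid (GPI) anchor, as are THY1 (CD90) and the ecto-enzyme CD73 encoded by Nt5e. CD34 is a sialomucin of stem and progenitor cells, and DLK1, also called PREF-1, is a transmembrane protein whose shed part holds back adipogenesis. Endoglin (Eng, CD105) is a co-receptor for ligands of the TGF-beta family, and Itgb1 encodes the beta chain (CD29) that pairs with many alpha chains to form receptors for collagen, laminin and fibronectin.

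In Aclyf/f cells, Pdgfra, Pdgfrb, Ly6a, Ly6c1, Eng and Itgb1 were all lower in adipocytes than in preadipocytes, by 2.65-fold for Itgb1 to 8.48-fold for Pdgfra. With differentiation of Acly-/- cells 4 of them passed the test as lower in all 22 alternative settings too, Itgb1 only narrowly (adjusted p = 0.0476) and Ly6a not, and the change was less negative than in Aclyf/f cells, by the test of the difference, for all but Eng. In Acly-/- adipocytes all 6 stood above the Aclyf/f adipocytes, by 1.49-fold for Eng to 5.08-fold for Ly6a. In preadipocytes the genotypes did not differ in 1 direction: Ly6a and Eng were higher in Acly-/- cells, Pdgfra and Itgb1 were lower, Pdgfrb was called higher by 1.19-fold but lost that call in 14 of 22 alternative settings, and Ly6c1 did not pass the test. Nt5e behaved apart from the others, with more than 2 FPKM in Aclyf/f adipocytes and at most 0.152 FPKM in any other library. These folds are ratios of mean FPKM. In bulk libraries fewer cells with a marker and less of its RNA per cell cannot be told apart.

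**Figure D1:**
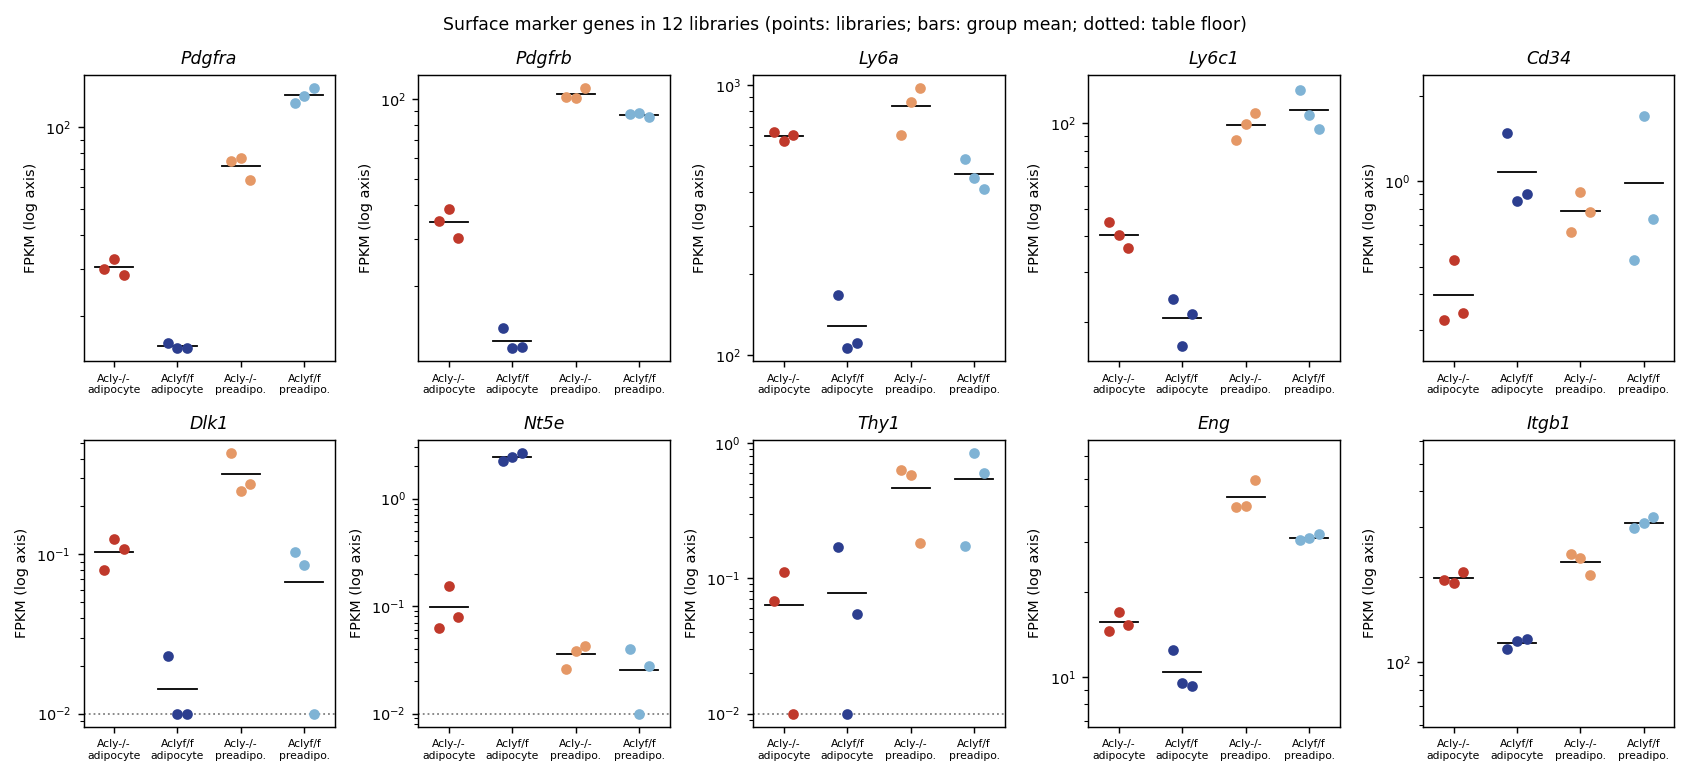
FPKM of each of the 10 marker genes (log axis, own scale per panel) in Acly-/- adipocytes, Aclyf/f adipocytes, Acly-/- preadipocytes and Aclyf/f preadipocytes, with a point for each library, a bar at the group mean and a dotted line at the table floor of 0.01 FPKM. The 3 Aclyf/f adipocyte libraries lie lowest for Pdgfra, Pdgfrb, Ly6a, Ly6c1, Eng and Itgb1 and highest for Nt5e, while Cd34, Dlk1 and Thy1 stay below 2 FPKM throughout.

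The tests were run on all 11777 genes that reached 1 FPKM in 3 or more libraries, with limma on log2(FPKM + 1), and a gene was called at a Benjamini-Hochberg adjusted p under 0.05. Of the 10 genes 7 entered the tests. Nt5e entered only through the Aclyf/f adipocytes, so it had to differ between those and the rest, and it is kept out of the counts that follow. Among the other 6, Acly-/- adipocytes were higher than Aclyf/f adipocytes in 6 and lower in 0, where 25.6% of all tested genes were called higher and 29.2% lower. Acly-/- preadipocytes were higher than Aclyf/f preadipocytes in 3 and lower in 2, against 19.7% and 22.4% of all tested genes, and the 3 became 2 in the settings where Pdgfrb lost its call. With differentiation of Acly-/- cells 0 were called higher and 5 lower, against 30.4% and 31.0%, and with differentiation of Aclyf/f cells 0 were called higher and 6 lower, against 36.5% and 36.0%.

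The test of the difference between both differentiation responses was called for 5 of these 6 genes, all with the less negative change in Acly-/- cells, where 23.7% of all tested genes were called in that direction and 26.4% in the other. The gene that was not called is Eng. The median fold change of all tested genes lay within 0.03 of 0 on the log2 scale in every comparison. Under rescaling to the same FPKM sum, 34.5% of the calls between preadipocytes of both genotypes were higher in Acly-/- cells, against 46.8% as deposited, and 36.4% against 46.7% between adipocytes; none of the 6 genes changed direction with it, and Pdgfrb was no longer called between preadipocytes (adjusted p = 0.224).

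**Figure D2:**
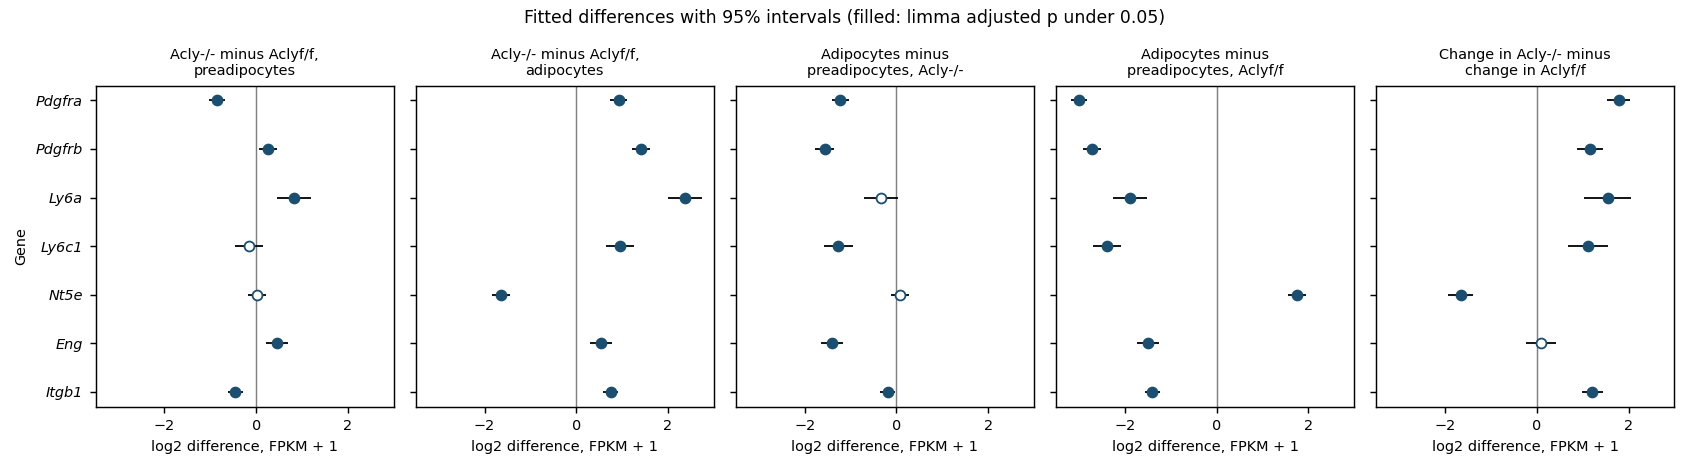
Fitted log2 differences of FPKM + 1 for the 7 tested marker genes, with 95% intervals as lines, in the comparisons of genotypes (Acly-/- minus Aclyf/f), of stages (adipocytes minus preadipocytes) and of both stage responses (Acly-/- change minus Aclyf/f change); filled points have a limma adjusted p under 0.05. All 6 markers other than Nt5e lie right of 0 in the adipocyte genotype panel, while in the preadipocyte panel they fall on both sides.

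Pdgfra, the receptor that binds the PDGF A and C chains with high affinity, had 29.99, 32.7 and 28.3 FPKM in Acly-/- adipocytes, against 15.95, 15.3 and 15.2 FPKM in Aclyf/f adipocytes. In preadipocytes it had 75.3, 77.1 and 64.0 FPKM in Acly-/- cells, against 123, 131 and 140 FPKM in Aclyf/f cells. No group overlapped another, and the order of the genotypes was opposite at both stages: Acly-/- cells were the higher ones as adipocytes and the lower ones as preadipocytes. The log2 fold change of Acly loss was 0.92 (SE 0.08, limma adjusted p = 8.53e-07) in adipocytes and -0.86 (SE 0.08, adjusted p = 2.97e-06) in preadipocytes. Differentiation lowered Pdgfra by 2.38-fold in Acly-/- cells and by 8.48-fold in Aclyf/f cells, and the difference between both changes was 1.78 on the log2 scale (SE 0.12, adjusted p = 8.62e-08). The Pdgfra locus spans chr5:75152291-75198204 on the plus strand of mm10, and 6.50% of its exonic bases also lie in other annotated genes, Gm42802 and Gm42803 on the opposite strand and Mir7025. Whether counting used strand is not given in the sources used here.

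Pdgfrb, the receptor for the PDGF B and D chains, had 34.9, 38.9 and 30.2 FPKM in Acly-/- adipocytes, against 13.9, 11.6 and 11.8 FPKM in Aclyf/f adipocytes. It had 101, 101 and 110 FPKM in Acly-/- preadipocytes and 87.8, 88.4 and 86.0 FPKM in Aclyf/f preadipocytes. The genotypes did not overlap at either stage, and here Acly-/- cells were the higher ones at both. The adipocyte difference was 2.78-fold (log2 fold change 1.40, SE 0.09, limma adjusted p = 3.89e-08). The preadipocyte difference was 1.19-fold (0.25, SE 0.09, adjusted p = 0.0424) and this call did not hold: it was lost in 14 of 22 alternative settings, among them leaving out any of the 6 preadipocyte libraries, library 1 of the Acly-/- adipocytes or library 2 or 3 of the Aclyf/f adipocytes, with adjusted p of 0.0502 to 0.126 in these. The fall with differentiation was 3.01-fold in Acly-/- cells and 7.03-fold in Aclyf/f cells, a difference of 1.15 on the log2 scale (SE 0.13, adjusted p = 9.38e-06). The locus is chr18:61045150-61085067 on the plus strand of mm10, with no exonic base in another annotated gene.

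The balance of both receptors was set out per library. Pdgfra over Pdgfrb, a ratio taken up after the values were seen, was 0.860, 0.840 and 0.939 in Acly-/- adipocytes, against 1.15, 1.31 and 1.29 in Aclyf/f adipocytes. It was 0.742, 0.767 and 0.579 in Acly-/- preadipocytes, against 1.40, 1.48 and 1.63 in Aclyf/f preadipocytes. All 6 Acly-/- libraries lay below 1 and all 6 Aclyf/f libraries above it. The log2 ratio differed by -0.51 between genotypes in adipocytes and by -1.12 in preadipocytes (Acly-/- minus Aclyf/f), each with an exact two-sided permutation p = 0.1, the smallest that 3 libraries against 3 allow. FPKM corrects for transcript length, so the ratio compares levels of both genes as far as the authors' gene lengths are right.

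**Figure D3:**
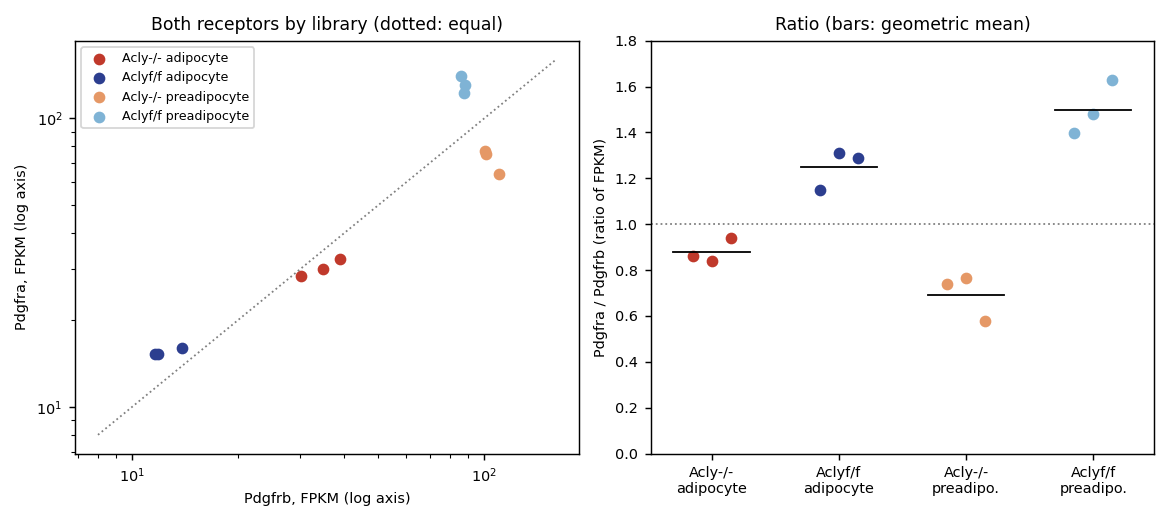
Left, Pdgfra against Pdgfrb in FPKM per library (both axes log, dotted line where they are equal); right, Pdgfra divided by Pdgfrb per library with the geometric mean of each group as a bar. The 6 Acly-/- libraries, at 0.579 to 0.939, lie below a ratio of 1 and the 6 Aclyf/f libraries, at 1.15 to 1.63, above it.

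Of 12 genes for PDGF ligands, their proteolytic activation and receptor signalling, 11 were tested. Between adipocytes 4 were higher and 2 lower in Acly-/- cells, where 25.6% and 29.2% of all tested genes were called. The median log2 fold change was 0.07 beside -0.02 over all tested genes. Plat, the tissue plasminogen activator that cleaves PDGF-C into its active form, averaged 9.004 FPKM in Acly-/- adipocytes and 2.198 FPKM in Aclyf/f adipocytes (log2 fold change 1.65, SE 0.11, limma adjusted p = 6.25e-08). Lrp1, an endocytic receptor that interacts with PDGFRB, averaged 188 and 102 FPKM in the same groups (0.85, SE 0.11, adjusted p = 2.82e-05). Between preadipocytes 2 were higher and 3 lower, against 19.7% and 22.4% of all tested genes, with a median of -0.04 beside -0.01. The ligand genes moved apart there: Pdgfa averaged 16.3 FPKM in Acly-/- preadipocytes and 7.18 FPKM in Aclyf/f preadipocytes (1.07, adjusted p = 0.000120), and Pdgfd 5.20 and 9.90 FPKM (-0.84, adjusted p = 0.00106). Pdgfc was higher in Acly-/- cells at both stages, by 0.63 in adipocytes (adjusted p = 0.000321) and 0.72 in preadipocytes (adjusted p = 0.000175), and Pdgfb was under 0.3 FPKM in every library.

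Pdgfra and Ly6c1 fell with differentiation and stood higher in Acly-/- adipocytes than in Aclyf/f adipocytes. Nt5e was highest in Aclyf/f adipocytes, through which alone it entered the tests, so its contrast with them was set by the filter. The 250 bases that precede the transcription start are shown for Pdgfra, Ly6c1 and Nt5e. They are from RefSeq on GRCm38.p6, the assembly of mm10, read 5′ to 3′ in the direction of the gene, at chr5:75152001-75152250 (plus strand), chr15:75048838-75049087 (minus strand) and chr9:88327359-88327608 (plus strand). Capitals mark matches to any of 6 motifs sought on both strands.
Pdgfra: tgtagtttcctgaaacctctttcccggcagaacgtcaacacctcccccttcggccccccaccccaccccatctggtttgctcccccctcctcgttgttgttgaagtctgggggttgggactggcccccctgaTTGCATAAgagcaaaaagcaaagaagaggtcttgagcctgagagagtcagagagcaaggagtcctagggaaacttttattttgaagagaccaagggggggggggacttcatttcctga
Ly6c1: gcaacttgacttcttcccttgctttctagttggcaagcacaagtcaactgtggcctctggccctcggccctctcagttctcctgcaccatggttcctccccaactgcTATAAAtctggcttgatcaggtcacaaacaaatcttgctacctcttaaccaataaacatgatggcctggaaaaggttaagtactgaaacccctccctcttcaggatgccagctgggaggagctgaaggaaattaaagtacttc
Nt5e: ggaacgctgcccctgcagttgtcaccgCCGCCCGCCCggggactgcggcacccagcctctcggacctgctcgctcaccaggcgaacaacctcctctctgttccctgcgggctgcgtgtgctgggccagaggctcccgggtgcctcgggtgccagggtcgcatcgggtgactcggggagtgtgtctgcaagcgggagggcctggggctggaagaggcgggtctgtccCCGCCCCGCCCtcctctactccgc
In Pdgfra the capitals are a C/EBP motif, TTGCNNAA, at -118 to -111 from the RefSeq start, which lies a short way before the start of the deposited locus; 9.56% of the 32851 promoter windows of the same length hold that motif. In Ly6c1 they are the letters of a TATA box, TATAAA, at -143 to -138, found in 12.4% of windows. A further RefSeq window of Ly6c1, at chr15:75048664-75048913 and not shown, held no match to any of the 6 motifs. In Nt5e they are 4 matches of the GC box GGGCGG on the opposite strand, in overlapping pairs near both ends, a motif in 32.7% of windows, and 72% of its bases are G or C where the median window has 52.4%. Of the windows not shown, that of Itgb1 also held a GC box, at -151 to -146, and 68% of its bases are G or C. Itgb1 fell with differentiation of Aclyf/f cells and stood higher in Acly-/- adipocytes, as Pdgfra did. The interferon-response motif (GAAA, any 2 bases, GAAA), the STAT motif TTCNNNGAA and the direct repeat bound by PPAR-gamma with RXR (AGGTCA, any 1 base, AGGTCA) were in none of the 8 windows at hand for Pdgfra, Ly6c1, Cd34, Dlk1, Nt5e, Eng and Itgb1, and in 2.98%, 7.02% and 0.0335% of all windows. A match is a string of letters and not a bound site.

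Ly6a had the highest mean of the 10 genes in every group. It had 673, 619 and 655 FPKM in Acly-/- adipocytes, against 167, 106 and 110 FPKM in Aclyf/f adipocytes. As preadipocytes, Acly-/- cells had 655, 868 and 979 FPKM, against 533, 454 and 413 FPKM in Aclyf/f cells. The genotypes did not overlap at either stage, and Acly-/- adipocytes also stood above all Aclyf/f preadipocytes. The log2 fold change of Acly loss was 2.37 in adipocytes (SE 0.17, limma adjusted p = 9.16e-08) and 0.83 in preadipocytes (SE 0.17, adjusted p = 0.00166). With differentiation Ly6a fell by 1.89 on the log2 scale in Aclyf/f cells (adjusted p = 2.51e-07). In Acly-/- cells the change was -0.34, with a 95% interval of -0.71 to 0.02 and an adjusted p of 0.0967, which became 0.0204 without library 1 of the Acly-/- preadipocytes and 0.0347 without library 1 of the Aclyf/f adipocytes. The difference between both responses was 1.54 (SE 0.24, adjusted p = 0.000161).

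Ly6c1 had 44.8, 40.3 and 36.3 FPKM in Acly-/- adipocytes, against 24.1, 16.5 and 21.3 FPKM in Aclyf/f adipocytes, and 87.6, 99.5 and 109 FPKM in Acly-/- preadipocytes, against 131, 107 and 95.2 FPKM in Aclyf/f preadipocytes. The genotypes were apart in adipocytes and overlapped in preadipocytes. The log2 fold change of Acly loss was 0.95 in adipocytes (SE 0.14, limma adjusted p = 8.19e-05) and -0.16 in preadipocytes, with a 95% interval of -0.47 to 0.14 and an adjusted p of 0.380. Differentiation lowered it by 2.44-fold in Acly-/- cells and 5.39-fold in Aclyf/f cells, a difference of 1.12 on the log2 scale (SE 0.20, adjusted p = 0.000501). Ly6c1 thus shared the adipocyte difference with its neighbour Ly6a, and the preadipocyte difference was called for Ly6a alone of this pair; whether the genes differ from each other was not tested.

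Both genes lie in the Ly6 cluster on the minus strand of chromosome 15, Ly6a at chr15:74994877-74998031 and Ly6c1 at chr15:75044018-75048837 on mm10. Of the 50-base words in their GENCODE transcripts, 19.0% for Ly6a and 32.8% for Ly6c1 also occur in other genes, led by each other and by Ly6i and Ly6c2, whereas at most 0.447% did for any of the other 8 genes. How the authors placed reads that match several copies is not stated in the labels, so part of each level may belong to a neighbour. Ly6c2 was listed at the floor of 0.01 FPKM in all 12 libraries and Ly6i averaged at most 0.472 FPKM in any group. Within 250 kilobases of the pair only Lynx1, Ly6d and Ly6e were also tested. Ly6e, a GPI-anchored family member, averaged 437 FPKM in Acly-/- adipocytes and 123 FPKM in Aclyf/f adipocytes (log2 fold change 1.85, limma adjusted p = 8.84e-07), and 544 FPKM in Acly-/- preadipocytes and 186 FPKM in Aclyf/f preadipocytes (1.53, adjusted p = 9.05e-06).

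Unlike Ly6a and Ly6c1, Ly6e was not called for a difference between both differentiation responses (0.32, adjusted p = 0.277). Lynx1, a brain-expressed modulator of nicotinic acetylcholine receptors, was higher in Acly-/- cells by 1.35 in adipocytes (adjusted p = 6.35e-07) and by 0.42 in preadipocytes (adjusted p = 0.0121). Over the LY6 and uPAR family apart from Ly6a and Ly6c1, 16 of 17 listed genes were in the table and 5 were tested, of which 3 were higher and 0 lower in Acly-/- adipocytes (median log2 fold change 0.55 beside -0.02, with 25.6% and 29.2% of all tested genes called), and 2 higher and 1 lower in Acly-/- preadipocytes (median 0.27 beside -0.01, with 19.7% and 22.4% called). These shares are the background for the lists that follow too. Of 24 tested genes for the synthesis and attachment of GPI anchors, which hold the LY6 proteins in the membrane, 11 were higher and 3 lower in Acly-/- adipocytes (median log2 fold change 0.19 beside -0.02 over all tested genes), and 8 were higher and 0 lower in Acly-/- preadipocytes (median 0.11 beside -0.01). Pgap1 of that list is left out, because it reached 1 FPKM only in Aclyf/f preadipocytes.

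Ly6a and Ly6e are known to respond to interferon. All 16 listed interferon-induced genes, a list made with earlier results of these data known, were higher in Acly-/- cells at both stages, with a median log2 fold change of 2.01 in adipocytes and 2.49 in preadipocytes, beside -0.02 and -0.01 over all tested genes. Of these, Oas3 averaged under 1 FPKM in both Aclyf/f groups and entered the tests through Acly-/- cells, so it had to differ. Their summed level was 1327, 1249 and 1271 FPKM in Acly-/- adipocytes, against 618, 402 and 409 FPKM in Aclyf/f adipocytes, and 2359, 3023 and 3102 FPKM in Acly-/- preadipocytes, against 848, 936 and 813 FPKM in Aclyf/f preadipocytes. Library 1 of the Aclyf/f adipocytes had both the highest sum and the highest Ly6a level of its group, and library 1 of the Acly-/- preadipocytes had both the lowest sum and the lowest Ly6a level of its group. In Aclyf/f preadipocytes the highest sum was in library 2 and the highest Ly6a level in library 1. With differentiation the list had 0 genes higher and 16 lower in Acly-/- cells (median -1.03), and 1 higher and 11 lower in Aclyf/f cells (median -0.70). Of all tested genes 30.4% were called higher and 31.0% lower in Acly-/- cells, and 36.5% and 36.0% in Aclyf/f cells. The difference between both responses ran the other way than for Ly6a: 0 interferon-induced genes were called above and 7 below 0, with a median of -0.52, against 1.54 for Ly6a. Of all tested genes 23.7% were called above 0 and 26.4% below 0. The part of the interferon-induced genes in the Ly6a result was not tested.

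**Figure D4:**
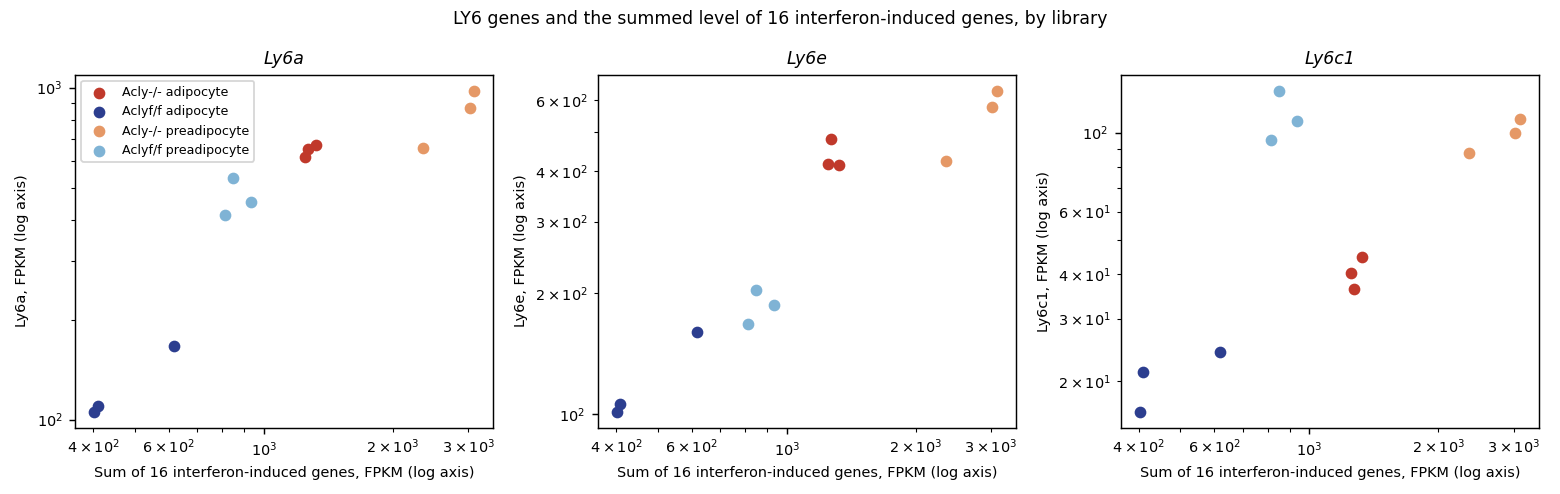
Ly6a, Ly6e and Ly6c1 in FPKM (log axis) against the summed FPKM of the 16 interferon-induced genes (log axis), a point per library, coloured by group. Ly6a at 413 to 533 FPKM and Ly6c1 at 95.2 to 131 FPKM in Aclyf/f preadipocytes lie above the Aclyf/f adipocytes, as do the sums. The sum is higher in Acly-/- adipocytes than in Aclyf/f preadipocytes. Between these 2 groups Ly6a, at 619 to 673 FPKM, and Ly6e, at 415 to 480 FPKM, are also higher in the Acly-/- adipocytes. Ly6c1, at 36.3 to 44.8 FPKM in Acly-/- adipocytes, is lower there. The part of the sum in these levels was not tested.

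Eng had 14.5, 17.0 and 15.2 FPKM in Acly-/- adipocytes, against 12.5, 9.55 and 9.29 FPKM in Aclyf/f adipocytes, and 39.8, 40.0 and 49.3 FPKM in Acly-/- preadipocytes, against 30.4, 30.8 and 31.8 FPKM in Aclyf/f preadipocytes. The genotypes did not overlap at either stage, and the difference was of like size at both: 0.55 in adipocytes (SE 0.11, limma adjusted p = 0.000946) and 0.45 in preadipocytes (SE 0.11, adjusted p = 0.00487). The fall with differentiation was 2.76-fold in Acly-/- cells and 2.97-fold in Aclyf/f cells. Their difference was 0.09 on the log2 scale with a 95% interval of -0.24 to 0.43 (adjusted p = 0.649), an interval that lies below the estimates for Pdgfra, Pdgfrb, Ly6a, Ly6c1 and Itgb1, although a test between genes was not made. The locus is chr2:32646595-32694175 on the plus strand of mm10, and 1.51% of its exonic bases also lie in Fpgs on the other strand. Fpgs, which encodes folylpolyglutamate synthase, was itself higher in Acly-/- preadipocytes (0.47, adjusted p = 0.00457) and not called in adipocytes (0.16, adjusted p = 0.241), and its part in the Eng level was not tested.

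Among 22 ligands, receptors, SMADs, targets and processing enzymes of the TGF-beta and BMP pathways in which endoglin takes part, 19 were tested. In Acly-/- adipocytes 14 were higher and 1 lower than in Aclyf/f adipocytes (median log2 fold change 0.38 beside -0.02 over all tested genes), whereas in Acly-/- preadipocytes 1 was higher and 8 lower than in Aclyf/f preadipocytes (median -0.20 beside -0.01). Tgfb2, a TGF-beta ligand, averaged 24.7 FPKM in Acly-/- adipocytes and 4.93 FPKM in Aclyf/f adipocytes (2.11, SE 0.09, limma adjusted p = 9.86e-10). Mmp14, the membrane protease that can release soluble endoglin, averaged 163 and 54.8 FPKM in the same groups (1.56, adjusted p = 3.03e-08), and 170 FPKM in Acly-/- preadipocytes against 372 FPKM in Aclyf/f preadipocytes (-1.13, adjusted p = 1.16e-06). Tgfbr3, the related co-receptor betaglycan, was lower in Acly-/- preadipocytes (-0.57, adjusted p = 0.000139). In Aclyf/f cells 2 of the 19 were higher and 14 lower after differentiation (median -0.90), and in Acly-/- cells 4 were higher and 5 lower (median 0.01). The shares of all tested genes called higher and lower were 36.5% and 36.0% in Aclyf/f cells and 30.4% and 31.0% in Acly-/- cells. Gdf2 and Bmp10, which encode the high-affinity ligands of endoglin, were under 0.3 FPKM in every library.

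Itgb1 had 196, 190 and 208 FPKM in Acly-/- adipocytes, against 111, 118 and 121 FPKM in Aclyf/f adipocytes, and 241, 233 and 203 FPKM in Acly-/- preadipocytes, against 296, 309 and 324 FPKM in Aclyf/f preadipocytes. As with Pdgfra, Acly-/- cells were the higher ones as adipocytes and the lower ones as preadipocytes, without overlap at either stage. The log2 fold change was 0.76 in adipocytes (SE 0.08, limma adjusted p = 2.27e-06) and -0.46 in preadipocytes (SE 0.08, adjusted p = 0.000318). Differentiation lowered Itgb1 by 1.40 on the log2 scale in Aclyf/f cells (adjusted p = 1.07e-09). In Acly-/- cells the change was -0.19 (SE 0.08, adjusted p = 0.0476), which lost its call in 14 of 22 alternatives. Among these were leaving out library 1 or 2 of the Acly-/- adipocytes, library 2 or 3 of the Aclyf/f adipocytes, library 1 or 2 of the Acly-/- preadipocytes or any Aclyf/f preadipocyte library, with adjusted p of 0.0524 to 0.172. The difference between both responses was 1.21 (SE 0.11, adjusted p = 1.07e-06). The locus is chr8:128685654-128733579 on the plus strand of mm10, and none of its exonic bases lie in another annotated gene.

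The alpha chains that pair with the beta chain did not move as a block. Of 12 listed, 7 were tested. Leaving out Itga3, which reached 1 FPKM only in Acly-/- preadipocytes, 2 of 6 were higher and 3 lower in Acly-/- adipocytes than in Aclyf/f adipocytes (median log2 fold change -0.51, or 0.02 with Itga3, beside -0.02 over all tested genes). Itga5, whose product forms the fibronectin receptor, averaged 78.3 FPKM in Acly-/- adipocytes and 37.4 FPKM in Aclyf/f adipocytes (1.05, SE 0.09, limma adjusted p = 6.70e-07). The laminin receptor chain Itga7 averaged 6.68 and 26.4 FPKM in these groups (-1.84, SE 0.11, adjusted p = 1.25e-08), and Itga1, of a collagen receptor, 2.23 and 6.16 FPKM (-1.15, adjusted p = 6.19e-06). In preadipocytes Itga1 was also lower in Acly-/- cells, at 1.39 FPKM against 5.56 FPKM in Aclyf/f cells (-1.46, adjusted p = 1.16e-06). With differentiation of Aclyf/f cells, Itga6 and Itga7, both laminin receptor chains, rose by 4.50 and 4.17 on the log2 scale, while Itgav fell by 1.72. Itga7 averaged under 1 FPKM in both preadipocyte groups and entered the tests through adipocytes, so its rise was set by the filter. Of 9 tested genes that link integrins to the cytoskeleton, 2 were higher and 2 lower in Acly-/- adipocytes (median 0.04 beside -0.02, with 25.6% and 29.2% of all tested genes called) and 2 higher and 4 lower in Acly-/- preadipocytes (median -0.22 beside -0.01, with 19.7% and 22.4% called). There the adaptor Vcl averaged 102 FPKM against 249 FPKM in Aclyf/f preadipocytes (-1.28, adjusted p = 5.72e-08).

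Nt5e, which encodes the enzyme that turns extracellular AMP into adenosine, was low except in Aclyf/f adipocytes. It had 0.0622, 0.152 and 0.0791 FPKM in Acly-/- adipocytes, against 2.23, 2.43 and 2.66 FPKM in Aclyf/f adipocytes. In preadipocytes it had 0.0261, 0.0384 and 0.0421 FPKM in Acly-/- cells, and 0.0394 and 0.0275 FPKM in Aclyf/f cells with library 2 listed at the floor of 0.01. At the estimated depths this is about 93.2 to 134 fragments per Aclyf/f adipocyte library, 2.25 to 6.73 per Acly-/- adipocyte library and at most 2.24 per preadipocyte library. The mean of Acly-/- adipocytes was 24.9-fold below that of Aclyf/f adipocytes, a fold that rests on those few fragments. The log2 fold change on the FPKM + 1 scale, which compresses low values, was -1.65 (SE 0.09, limma adjusted p = 7.44e-09), and it ranged from -0.55 to -3.71 with other pseudocounts and settings. In preadipocytes the genotypes differed by 0.01 on that scale (adjusted p = 0.918), and with differentiation Nt5e changed by 0.08 in Acly-/- cells (adjusted p = 0.438) and by 1.74 in Aclyf/f cells (adjusted p = 6.26e-10). Nt5e entered the tests only through the Aclyf/f adipocytes, so both differences called here were set by the filter. Their adjusted p-values therefore lend no support.

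Of 12 further genes that handle extracellular nucleotides and adenosine, 8 were tested, with 1 higher and 3 lower in Acly-/- adipocytes (median log2 fold change -0.09 beside -0.02 over all tested genes). Adora1, the adenosine receptor through which adenosine restrains lipolysis in adipocytes, averaged 1.76 FPKM in Acly-/- adipocytes and 10.1 FPKM in Aclyf/f adipocytes (-2.01, SE 0.09, limma adjusted p = 8.34e-10). It was at most at 0.0138 FPKM on average in either preadipocyte group. Ada, which encodes the deaminase that removes adenosine, averaged 8.51 FPKM in Acly-/- adipocytes and 4.26 FPKM in Aclyf/f adipocytes (0.86, adjusted p = 1.63e-05). The ectonucleotidase Enpp1 fell by 4.77 on the log2 scale with differentiation of Aclyf/f cells (adjusted p = 1.90e-14). It averaged under 1 FPKM in both adipocyte groups and entered the tests through preadipocytes, so this fall was set by the filter. The Nt5e locus is chr9:88327609-88372089 on the plus strand of mm10.

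Cd34, Dlk1 and Thy1 were too low for the filter, and their values are given with a fit that had no filter. Cd34 (chr1:194938821-194976959, plus strand) had 0.324, 0.528 and 0.342 FPKM in Acly-/- adipocytes, against 1.47, 0.851 and 0.902 FPKM in Aclyf/f adipocytes, or about 8.97 to 17.9 fragments against 31.4 to 47.3. The adipocyte groups did not overlap, but the fit gave -0.56 with a limma adjusted p of 0.0824. In preadipocytes it had 0.660, 0.913 and 0.782 FPKM in Acly-/- cells and 0.527, 1.70 and 0.737 FPKM in Aclyf/f cells, with full overlap. Dlk1 (chr12:109452823-109463336, plus strand) had 0.434, 0.251 and 0.278 FPKM in Acly-/- preadipocytes, against 0.104 and 0.0861 FPKM and 1 library at the floor in Aclyf/f preadipocytes. The groups were apart and the unfiltered fit called the difference (0.31, adjusted p = 0.00302), on about 8.60 to 21.6 fragments per library against at most 3.42. With differentiation Dlk1 was called lower in Acly-/- cells (-0.26, adjusted p = 0.00423) and not called in Aclyf/f cells (-0.07, adjusted p = 0.393), and the difference between both changes was not called (adjusted p = 0.115). In Acly-/- adipocytes it had 0.0792, 0.125 and 0.108 FPKM, against 0.0230 FPKM and 2 libraries at the floor in Aclyf/f adipocytes (0.12, adjusted p = 0.137).

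Thy1 (chr9:44043384-44048579, plus strand) was between the floor and 0.170 FPKM in adipocytes of both genotypes, had 0.626, 0.584 and 0.183 FPKM in Acly-/- preadipocytes and 0.172, 0.844 and 0.602 FPKM in Aclyf/f preadipocytes, and was called in none of the comparisons. The change with differentiation was -0.45 in Acly-/- cells and -0.49 in Aclyf/f cells, with limma adjusted p of 0.0907 and 0.0547. Around Dlk1, 8 of 17 listed genes of the Notch pathway, DLK1 shedding and the imprinted Dlk1-Meg3 domain were tested, and 4 were higher and 3 lower in Acly-/- preadipocytes (median log2 fold change 0.31 beside -0.01). Sox9, the transcription factor that DLK1 is known to sustain in progenitors, averaged 7.94 FPKM in Acly-/- preadipocytes and 2.38 FPKM in Aclyf/f preadipocytes (1.40, SE 0.10, adjusted p = 1.84e-07). Hes1, a Notch target, was lower in Acly-/- preadipocytes (-0.59, adjusted p = 0.00104) and higher in Acly-/- adipocytes (0.81, adjusted p = 5.27e-05). Meg3, the non-coding RNA of the same domain, was listed at the floor in all 12 libraries.

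Other markers of adipose progenitors were 17 genes, of which 10 were tested. Anpep is left out of the counts, since it reached 1 FPKM only in Aclyf/f preadipocytes. In Acly-/- adipocytes 5 were higher and 1 lower than in Aclyf/f adipocytes (median log2 fold change 0.28 beside -0.02 over all tested genes), and in Acly-/- preadipocytes 1 was higher and 5 lower than in Aclyf/f preadipocytes (median -0.34 beside -0.01). The 1 called higher in Acly-/- preadipocytes was Alcam, at 0.501 against 0.123 FPKM. That preadipocyte median was the value of Mcam, at 0.129 against 0.431 FPKM, and was -0.64 with Anpep kept. Only F3 and Ngfr were called in opposite directions at both stages, and Mcam was lower in Acly-/- cells at both. F3, the coagulation factor CD142 that marks a regulatory progenitor subset in mouse fat, averaged 156 FPKM in Acly-/- adipocytes and 52.2 FPKM in Aclyf/f adipocytes (1.56, SE 0.10, limma adjusted p = 2.74e-08). Cd44, the hyaluronan receptor, averaged 8.51 and 3.31 FPKM in these groups (1.14, adjusted p = 1.02e-07). Mcam (CD146), an adhesion molecule, ran the other way at 1.07 FPKM in Acly-/- adipocytes and 19.4 FPKM in Aclyf/f adipocytes (-3.30, SE 0.08, adjusted p = 5.65e-12), and it was the gene of the list with the largest rise on differentiation of Aclyf/f cells (3.83). Mcam and Alcam averaged under 1 FPKM in both preadipocyte groups and entered the tests through adipocytes. Their rise with differentiation was therefore set by the filter. In preadipocytes the nerve growth factor receptor Ngfr averaged 3.63 FPKM in Acly-/- cells and 21.9 FPKM in Aclyf/f cells (-2.30, adjusted p = 1.68e-08) and the adhesion molecule Vcam1 11.5 and 49.6 FPKM (-2.03, adjusted p = 6.76e-09). Dpp4, Pi16, Cd55, Bst1 and Lepr, among them markers of the least committed adipose progenitors in mice, were under 0.3 FPKM in every library.

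The stage response of those 9 genes differed between genotypes above 0 for 6 and below 0 for 2, with a median of 1.18 beside -0.02. The 2 below 0 were Mcam and Alcam, which entered the tests through adipocytes. Of all tested genes 23.7% were called above 0 and 26.4% below 0 in that comparison. Of 8 tested genes of mesenchyme and fibroblasts 4 were higher and 1 lower in Acly-/- adipocytes (median log2 fold change 0.43), and 1 was higher and 2 lower in Acly-/- preadipocytes (median 0.07). Col1a1, a chain of type I collagen, averaged 166 FPKM in Acly-/- adipocytes and 65.8 FPKM in Aclyf/f adipocytes (1.35, limma adjusted p = 1.59e-05). It was also the gene called higher in Acly-/- preadipocytes (0.45, adjusted p = 0.0470). Dcn, the proteoglycan decorin, averaged 15.3 FPKM in Acly-/- preadipocytes and 86.0 FPKM in Aclyf/f preadipocytes (-2.42, adjusted p = 2.56e-08). Dcn was also the gene called lower in Acly-/- adipocytes (-0.87, adjusted p = 0.000133). Prrx1 alone of the list was called in opposite directions, at 0.91 in adipocytes (adjusted p = 2.27e-06) and -0.39 in preadipocytes (adjusted p = 0.00385). Of 7 tested adipocyte genes 0 were higher and 6 lower in Acly-/- adipocytes (median -0.82), led by Adipoq, the gene of the hormone adiponectin, at 60.7 FPKM against 544 FPKM in Aclyf/f adipocytes (-3.14, adjusted p = 7.25e-11). Their part in the marker levels was not tested.

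**Figure D5:**
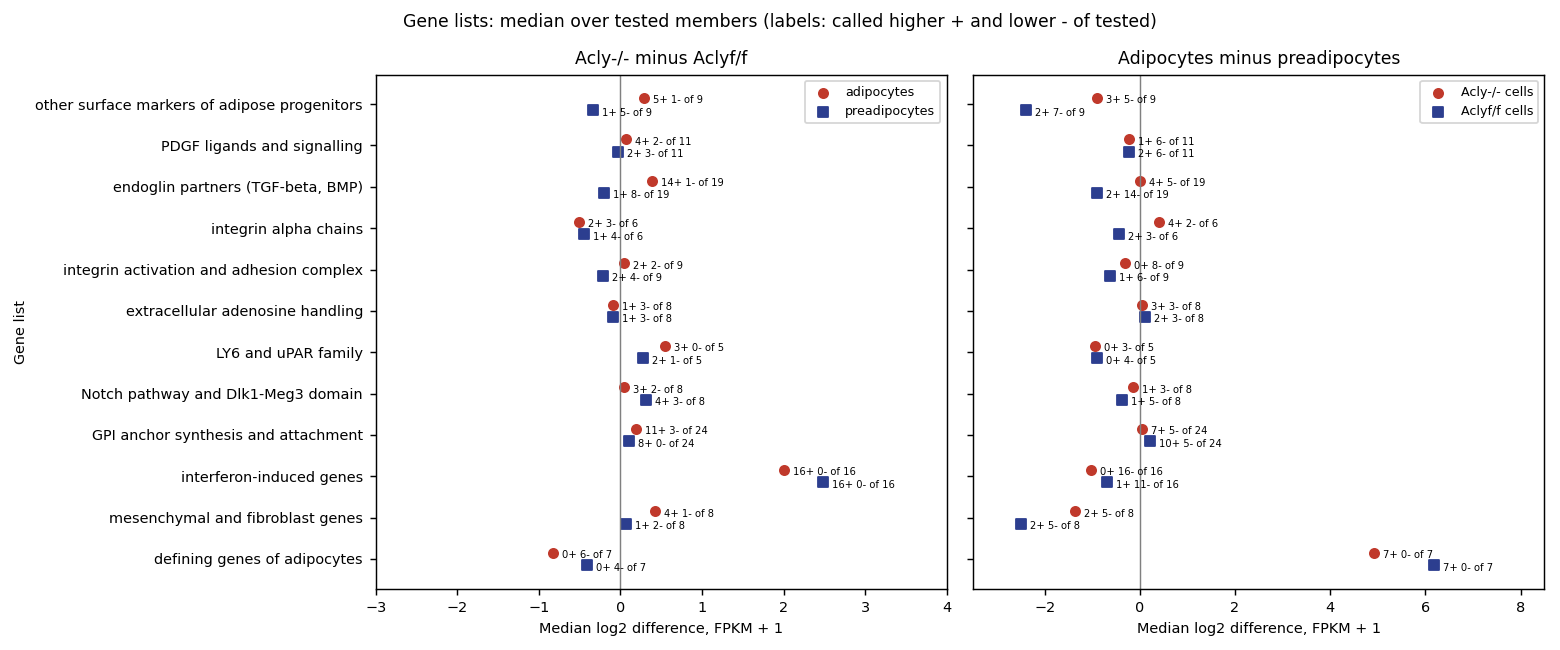
Median log2 difference of FPKM + 1 over the tested genes of 12 lists, between genotypes (left, Acly-/- minus Aclyf/f, circles for adipocytes and squares for preadipocytes) and between stages (right, adipocytes minus preadipocytes, circles for Acly-/- and squares for Aclyf/f cells), with the number called higher and lower of those tested beside each point and without Anpep, Itga3 and Pgap1, which reached 1 FPKM in 1 group only. The lists of other progenitor markers and of endoglin partners lie right of 0 in adipocytes and left of 0 in preadipocytes on the left side, while the interferon-induced genes lie at 2.01 and 2.49.

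Markers of other cell types that carry some of the same surface proteins were mostly absent. Of 8 leukocyte markers the sum was 29.4 to 34.6 FPKM in Acly-/- adipocytes and 1.43 to 1.98 FPKM in Aclyf/f adipocytes, and 2.28 to 4.27 FPKM in Acly-/- preadipocytes and 1.51 to 3.67 FPKM in Aclyf/f preadipocytes. In adipocytes nearly all of it was Cd68, a lysosomal protein, at 32.6 FPKM in Acly-/- adipocytes and 1.498 FPKM in Aclyf/f adipocytes. In preadipocytes Cd68 was at 2.75 FPKM in Acly-/- cells and 1.91 FPKM in Aclyf/f cells, with Lyz2 at 0.205 and 0.581 FPKM and Csf1r at 0.360 and 0.163 FPKM. Csf1r averaged 0.187 FPKM in Acly-/- adipocytes and 0.0176 FPKM in Aclyf/f adipocytes. Ptprc, Adgre1, Itgam and Cd3e were under 0.3 FPKM in every library. The 8 markers of endothelium, which itself makes endoglin and CD34, summed to 0.419 to 0.671 FPKM in Acly-/- adipocytes, 0.135 to 0.241 FPKM in Aclyf/f adipocytes, 1.13 to 1.71 FPKM in Acly-/- preadipocytes and 1.48 to 2.23 FPKM in Aclyf/f preadipocytes, with Cdh5, Pecam1, Tie1, Flt1, Tek and Vwf under 0.3 FPKM throughout. In preadipocytes most of the sum was Kdr, at 0.723 FPKM in Acly-/- cells and 1.37 FPKM in Aclyf/f cells. It reached 1 FPKM in Aclyf/f preadipocytes only. The 8 markers of mesothelium and epithelium summed to at most 6.42 FPKM in any library, and 7 of them, all but Krt19, were under 0.3 FPKM throughout.

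Mural cells, which carry PDGFRB, had 8 listed markers with sums of 46.2 to 54.4 FPKM in Acly-/- adipocytes and 22.1 to 34.4 FPKM in Aclyf/f adipocytes, and of 122 to 136 FPKM in Acly-/- preadipocytes and 395 to 409 FPKM in Aclyf/f preadipocytes. Most of this was Acta2, the smooth muscle actin also made by cultured fibroblasts, at 44.8 FPKM in Acly-/- adipocytes and 17.4 FPKM in Aclyf/f adipocytes, and at 129 FPKM in Acly-/- preadipocytes and 401 FPKM in Aclyf/f preadipocytes. Myh11, smooth muscle myosin, ran the other way, at 3.14 FPKM in Acly-/- adipocytes and 6.96 FPKM in Aclyf/f adipocytes (-0.94, limma adjusted p = 4.79e-06), and with differentiation of Aclyf/f cells it rose by 2.83 on the log2 scale where Acta2 fell by 4.50. Because Myh11 averaged under 1 FPKM in both preadipocyte groups and entered the tests through adipocytes, its rise was set by the filter. Cspg4, Kcnj8 and Abcc9 were under 0.3 FPKM in every library, and Kcnj8 was at the floor in all of them. Acta2 thus had the same order of genotypes within each stage as Pdgfra and Itgb1. Its part in the marker results was not tested.

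Among the 10 genes, Pdgfrb and Ly6c1 had the most similar course over the 12 libraries, with a root mean square difference of 0.304 between log2(FPKM + 1) values centred on each gene's own mean. The genes outside the set nearest to each member by the same measure, all libraries being shared, were Pxylp1 (0.131) and Tgfb1i1 (0.138) for Pdgfra, Aff3 (0.129) and C1qtnf1 (0.167) for Pdgfrb, and Metrnl (0.122) and Pcolce (0.152) for Ly6c1. For Ly6a they were Ifitm3 (0.246) and Pla1a (0.259), for Eng Lrrk1 (0.128) and Dlg5 (0.129), for Itgb1 Ets1 (0.0629) and Zfp644 (0.0991), and for Nt5e Ffar2 (0.0968) and Tfr2 (0.108). Ly6a therefore had the most distant nearest gene and Itgb1 the closest. Ets1 averaged 7.35 FPKM in Acly-/- adipocytes, 4.02 FPKM in Aclyf/f adipocytes, 9.23 FPKM in Acly-/- preadipocytes and 12.3 FPKM in Aclyf/f preadipocytes. Ffar2 averaged 0.0677 FPKM in Acly-/- adipocytes and 2.84 FPKM in Aclyf/f adipocytes, and Tfr2 0.130 and 2.95 FPKM. Like Nt5e, both averaged under 1 FPKM in every group but the Aclyf/f adipocytes. Genes that pass the filter in this way look alike on that scale, so their nearness to Nt5e lends no support to a shared course.

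The order of the 10 genes within a group was partly shared. Ly6a and then Itgb1 had the highest means in all 4 groups, and their ranges overlapped in Aclyf/f adipocytes alone. Of the next 3 genes, Ly6c1, Pdgfrb and Pdgfra, the order changed with the group: Ly6c1 and Pdgfrb overlapped, as did Pdgfrb and Pdgfra, in Acly-/- adipocytes, Pdgfrb and Ly6c1 overlapped in Acly-/- preadipocytes, and Pdgfra and Ly6c1 overlapped in Aclyf/f preadipocytes. Eng came after them in every group, with a range that overlapped that of Pdgfrb in Aclyf/f adipocytes. Cd34 was the highest of the 4 low genes in every group except Aclyf/f adipocytes, where Nt5e stood above it.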

How the data were processed

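RNA sequencing values of 12 libraries, 4 groups of 3 taken from the labels, were used as deposited by the authors in FPKM, 1 column per library and 24341 genes; all columns could be placed, and no value lies under a floor of 0.01. Per the submitters' processing notes, bcl2fastq, Bowtie2 2.2.6, Cufflinks 2.2.1 and build mm10 were used; for annotation, strand and the deposited filter the sources used here give nothing. The table holds no counts. Depth, 7.08e+06 to 1.38e+07 fragments, was estimated from the steps of 1 fragment among low values in 872 genes with transcripts of at least 3000 bases, a method tested on simulated data, so counts of fragments are approximate.

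The 11777 genes that reached 1 FPKM in 3 or more libraries were tested on log2(FPKM + 1) with limma (version 3.58.1, R version 4.3.3), with a mean per group, a variance trend and 5 contrasts, and the fit was tested on simulated data; adjusted p-values are by Benjamini-Hochberg in limma, over every tested gene of a contrast. Fold changes on that scale understate changes of low genes. A fold without log2 is a ratio of mean FPKM. Alternatives were other pseudocounts, filters, scalings, variance models and groups per fit, a replicate block, and leaving out each library. The 10 genes and all lists were chosen with earlier results of these data known; named list members are up to 3 with the largest change among those called in a contrast, and nearest genes are the 2 with the smallest root mean square difference. Loci are from the deposited table, counted from 1, exonic overlap and shared 50-base words from GENCODE M21, and promoters from RefSeq (GRCm38.p6); Ly6a, Thy1 and Pdgfrb were not matched there. Python 3.11.15 with pandas 2.3.3, numpy 2.4.6, scipy 1.17.1 and matplotlib 3.10.9 made the summaries. Genes that reached 1 FPKM in the libraries of 1 group only were left out of the list counts, a step chosen after the values were seen.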

Additional observations from a re-analysis of the deposited data

Results flagged for a closer look

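The change with differentiation differed between Acly-/- and Aclyf/f cells by limma's test of that difference for 5 of 6 tested markers, Nt5e set aside (adjusted p under 0.05, 95% intervals in the plot of fitted differences). On the log2(FPKM + 1) scale, as the Acly-/- change minus the Aclyf/f change, it was 1.78 for Pdgfra, 1.15 for Pdgfrb, 1.54 for Ly6a, 1.12 for Ly6c1 and 1.21 for Itgb1. The value for Nt5e was -1.66, but this gene entered the tests only through the Aclyf/f adipocytes, so that it had to differ.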

How the results depend on the processing

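Of 758 values of the 7 tested markers under alternative settings, 728 kept their side of the threshold and no called value was reversed; the sign turned in 1 value that was not called, Nt5e between preadipocytes with quantile normalization (-0.0077); 28 lost a call and 2 gained one. The losses were Pdgfrb between preadipocytes and Itgb1 with differentiation of Acly-/- cells, 14 settings each, with adjusted p of 0.0502 to 0.224 and 0.0524 to 0.193, and with a replicate block 0.0623 and 0.0796. The labels do not say whether replicate numbers pair the libraries, and the values showed no sign of it. Deviations from the group means correlated at -0.414 to 0.147 in 18 same-numbered pairs and at -0.168 to 0.416 in 36 other pairs. The replicate block, which used those numbers, left the counts of called markers within 1 of the reported ones (2 higher against 3 between preadipocytes, 4 lower against 5 with differentiation of Acly-/- cells). The gains were Ly6a with differentiation of Acly-/- cells without a library (0.0204 and 0.0347). With at least 5 FPKM in 3 libraries Nt5e was not tested, so the counts that include it, of markers lower in Acly-/- adipocytes, higher with differentiation of Aclyf/f cells and below 0 in the difference of responses were 0 in place of 1. Across the leave-one-out fits all genes called numbered 4070 to 5111 between preadipocytes and 5675 to 6726 between adipocytes. At the estimated depths 1 fragment was worth 0.0155 FPKM (Dlk1) to 0.0815 FPKM (Thy1) among Cd34, Dlk1, Nt5e and Thy1, which limits what their values can show.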
